A study of Mus musculus with 26 samples.

Results

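Best1 encodes bestrophin 1, a chloride channel that opens when intracellular calcium rises. Its mRNA is described here in mouse frontal cortex beside 9 other genes picked by name. These are its relatives Best2 and Best3, the anoctamins Ano1 and Ano2, the tweety homologues Ttyh1, Ttyh2 and Ttyh3, and Fth1 and Rab3il1, which adjoin Best1 on chromosome 19. All 10 symbols were found among the 55487 gene IDs of each count table, and 9 of them, all but Best2, were among the 18050 genes that passed the filter on low counts. Best1 was picked because it differed between the genotypes in these libraries, so its levels are a description with no test. RNA came from 7 HET mice, which carry an Adnp frameshift on a single allele (labelled Mutant), and from 7 WT littermates, all adolescent, as far as the labels and the design text state. Adnp encodes a zinc-finger homeodomain protein of chromatin complexes. Open chromatin was measured by ATAC-seq, in which a transposase cuts accessible DNA, and was deposited as a single merged peak list per genotype, from cortical tissue; 3 samples per genotype are labelled, while the protocol gives n = 2. Samples labelled PAT and Control and the chromosome conformation samples were not analysed here, and the sources used here state neither strain nor sex.

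Calcium-activated chloride channels let chloride cross the membrane when calcium enters the cell or leaves its stores, which changes membrane potential, secretion and cell volume. Bestrophin 1 is best known from the retinal pigment epithelium, where mutations of the human gene cause vitelliform macular dystrophy. In mouse brain it has been described as an astrocyte channel that passes GABA and glutamate. Anoctamins 1 and 2 are calcium-activated chloride channels of epithelia, smooth muscle and sensory cells. The tweety homologues have been described as chloride channels gated by calcium or swelling, a role that is debated.

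Each library held 33280785 to 47079906 counts (HET) or 32814841 to 48291175 counts (WT). Levels are in CPM, the usual depth-scaled unit of counts, with library sizes corrected by TMM (trimmed mean of M values). The mutated gene Adnp itself averaged 6.90 ± 1.30 CPM in HET, against 6.55 ± 0.87 CPM in WT (SD, n = 7 for both; adjusted p 0.772, edgeR). A frameshift allele can still be transcribed, so this level does not check the labels. Libraries differed within each genotype in summed markers of brain cells and regions. The excitatory neuron markers summed to 927 to 5330 CPM in HET and 2360 to 6400 CPM in WT, with none of 8 called, 5 of 8 at unadjusted p under 0.05, and a median log2 fold change of -0.91 over 8 negative values. The thalamus markers summed to 238 to 1930 CPM in HET and 155 to 694 CPM in WT, with none of 8 called, 5 of 8 at unadjusted p under 0.05, and a median log2 fold change of 1.23 over 8 positive values. Of all tested genes 22.2% had an unadjusted p under 0.05. Of the HET libraries, HET 6 had the highest excitatory sum and the lowest oligodendrocyte sum, and of the WT libraries WT 4 had the lowest excitatory sum. Those 2 libraries were picked after seeing the data. Their excitatory sums run against the lower excitatory markers of HET, so leaving both out widens that difference. Calls made without the pair are a description and add no support. For genes named below whose call changed without those 2 libraries, both values are given. Without them, 18.3% of all tested genes were called (9.0% higher and 9.28% lower). In bulk tissue, fewer cells of a type and less RNA per cell cannot be told apart.

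Best1 (ENSMUSG00000037418) lies on the minus strand of chromosome 19 from 9985174 to 10001633 (GRCm38). Its 13 merged exons hold 2579 bases. It sits between a pair of genes on the plus strand. The start of Rab3il1 (10001669 to 10038380) is 35 bases from the start of Best1, and the end of Fth1 (9980598 to 9985098) is 75 bases from the end of Best1. The 3 genes share 0 exon bases, and no other annotated gene overlaps Best1. Reads were counted without strand, so reads from the other strand, such as transcription running on past the end of Fth1, would be counted to Best1 where they fall in its exons. The 250 bases before the RefSeq start (GRCm38.p6) are shown for Best1, which had no peak there in either genotype. They are also shown for a window of Fth1 and the window of Ttyh3, each overlapped by a peak of both genotypes. All 3 are written 5′ to 3′ along the gene, with each CG in capitals, and the Best1 window crosses the start of Rab3il1.
Best1 (chr19:10001634-10001883, minus strand): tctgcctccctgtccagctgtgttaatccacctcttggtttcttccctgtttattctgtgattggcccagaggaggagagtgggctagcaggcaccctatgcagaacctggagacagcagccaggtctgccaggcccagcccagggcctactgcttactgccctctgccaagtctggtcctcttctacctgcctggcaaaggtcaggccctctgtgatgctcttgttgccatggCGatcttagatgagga
Fth1 (chr19:9982396-9982645, plus strand): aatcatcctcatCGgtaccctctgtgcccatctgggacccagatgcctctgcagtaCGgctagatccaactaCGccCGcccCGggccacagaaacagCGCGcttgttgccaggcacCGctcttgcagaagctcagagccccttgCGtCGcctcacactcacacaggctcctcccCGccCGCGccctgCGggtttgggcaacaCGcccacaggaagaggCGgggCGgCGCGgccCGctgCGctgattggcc
Ttyh3 (chr5:140649032-140649281, minus strand): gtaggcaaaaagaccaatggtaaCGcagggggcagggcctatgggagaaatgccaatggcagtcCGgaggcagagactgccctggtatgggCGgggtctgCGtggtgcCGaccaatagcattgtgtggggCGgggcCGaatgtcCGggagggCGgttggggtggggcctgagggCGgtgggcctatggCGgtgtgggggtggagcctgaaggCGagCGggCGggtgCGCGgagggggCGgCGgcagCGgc
The Best1 window holds 1 CG, the Fth1 window shown 21 and the Ttyh3 window 19. Another Fth1 window, before the RefSeq start at 9980600, holds 3 CG and no peak of either genotype overlaps it. Over all 32851 RefSeq windows of this length the median was 6, and 18.8% held no more CG than Best1.

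Motif letters were searched on both strands of those 250 bases. The Best1 window holds TAATCC, the core letters bound by OTX and CRX homeodomain proteins, at 227 bases before the start on the gene's own strand; 6.25% of all windows hold it on either strand. It also holds CANNTG at 1 position (66.2% of all windows hold it) and CCCTC at 2 positions (60.5%). CACGTG, which is a case of CANNTG, and GGCGGGA were not in these letters, and 6.02% and 9.75% of all windows hold them. Among the 15 windows of the 8 matched genes, TAATCC was also in 1 of the 3 windows of Ano2, at position -59 from that start. These matches describe letters and show no binding.

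Best1 mRNA was severalfold higher in HET cortex. The lowest, median and highest HET libraries had 3.79, 6.52 and 7.30 CPM, and the lowest, median and highest WT libraries had 0.616, 1.19 and 2.25 CPM. All 7 HET libraries lay above the highest WT library, which holds for 0.432% of all tested genes. The raw counts were 146 to 331 in HET and 26 to 114 in WT. The fitted log2 fold change was 2.10, or 4.30-fold. Of the 15125 tested genes whose mean log2 CPM was 0 or more, 29 had a larger one. Leaving out each library in turn gave 1.98 to 2.29, and leaving out HET 6 and WT 4 together gave 2.33. Within HET, 3 libraries (HET 3, HET 5 and HET 6) stood at 3.79 to 4.69 CPM and the other 4 at 6.52 to 7.30 CPM.

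**Figure D1:**
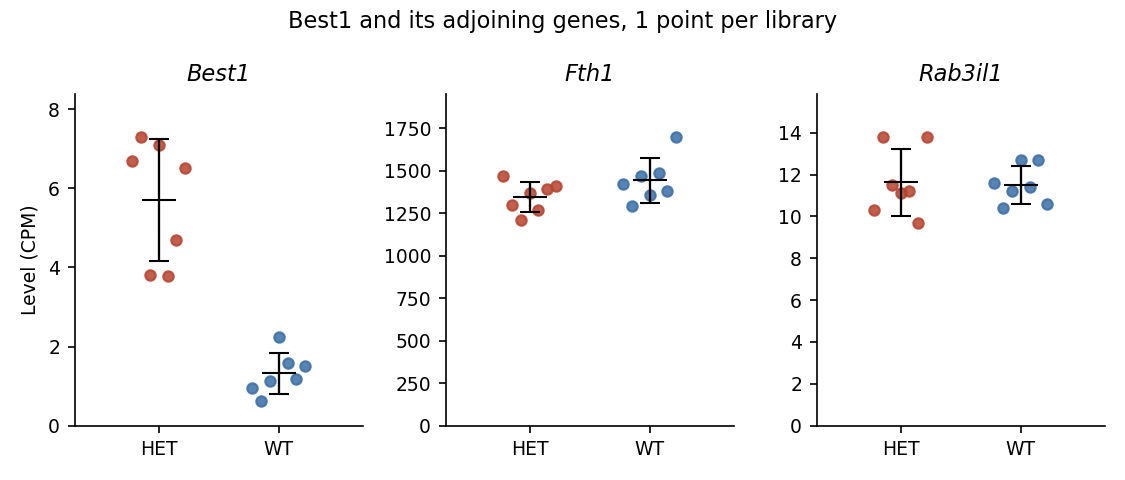
Level in CPM (vertical axis, from 0) of Best1, Fth1 and Rab3il1 in each of the 7 HET and 7 WT libraries, with bars for mean and SD. The Best1 points of HET (3.79 to 7.30 CPM) lie above all those of WT (0.616 to 2.25 CPM), while the groups of Fth1 and Rab3il1 overlap.

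Neither adjoining gene passed the test. Fth1, the heavy chain of the iron store ferritin, was the most abundant of the 10 genes, with 1210, 1370 and 1470 CPM in the lowest, median and highest HET libraries and 1290, 1420 and 1700 CPM in the WT ones. Its groups overlap, and its log2 fold change was -0.10 (SE 0.07, 95% confidence interval -0.25 to 0.04, adjusted p 0.374 in edgeR). Rab3il1, an exchange factor for Rab GTPases of vesicle traffic, had 9.67, 11.2 and 13.8 CPM in HET and 10.4, 11.4 and 12.7 CPM in WT. Its log2 fold change was 0.01 (95% confidence interval -0.18 to 0.21, adjusted p 0.948 in edgeR).

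Ratios to either neighbour in the same library restate the Best1 levels and add no support to them. Per 1000 counts of Fth1, Best1 had 3.00, 4.54 and 5.62 counts in the lowest, median and highest HET libraries and 0.477, 0.868 and 1.65 counts in the WT ones. Per 1000 counts of Rab3il1, it had 332, 485 and 652 counts in HET and 59.5, 99.6 and 177 counts in WT. Neither ratio overlaps between the genotypes, and the means differ 4.62-fold against Fth1 and 4.33-fold against Rab3il1.

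Of the 12 tested genes that start within 250 kb of Best1, 0 were called at adjusted p under 0.05, beside 0.97% of all tested genes. At unadjusted p under 0.05 there were 2, Incenp and Fads2. DESeq2 called 1 lower, Incenp, where it called 4.07% of all tested genes lower, and limma-voom called 0. Incenp, a subunit of the chromosomal passenger complex of cell division, averaged 13.5 CPM in HET and 18.2 CPM in WT (log2 fold change -0.43, adjusted p 0.0953 in edgeR). Without HET 6 and WT 4 it was called lower (-0.52, adjusted p 0.0196). Fads2, a fatty acid desaturase, averaged 211 CPM in HET and 170 CPM in WT (log2 fold change 0.32, adjusted p 0.141 in edgeR). Without HET 6 and WT 4 this gene was called higher (0.39, adjusted p 0.0408). Within 1000 kb, 1 gene was called. It was Vps37c, a subunit of the endosomal sorting complex ESCRT-I, singled out after its values were seen. It had 20.9 to 23.7 CPM in HET and 24.8 to 27.3 CPM in WT, so that all 7 HET libraries lay below the lowest WT library, as for 0.283% of all tested genes. Of all tested genes 0.382% were called lower in HET. Its log2 fold change was -0.24 (SE 0.05, adjusted p 0.0380 in edgeR), and leaving out any of 11 libraries in turn took its adjusted p above the threshold, up to 0.0910 (0.000271 to 0.2 over its 27 alternatives).

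The other bestrophins were barely detected. Best3, a bestrophin described in heart and muscle, had 0.269, 0.646 and 1.20 CPM in the lowest, median and highest HET libraries and 0, 0.260 and 0.801 CPM in the WT ones. The groups overlap, and 3 of 7 HET libraries exceeded the highest WT library. Over the groups this was 191 counts in HET and 79 counts in WT, with 0 HET and 2 WT libraries at 0. The log2 fold change was 1.29 (SE 0.64, 95% confidence interval -0.07 to 2.65, adjusted p 0.248 in edgeR). Best2, a bestrophin of colon and the ciliary body of the eye, gave 17 counts over all HET libraries and 8 over all WT libraries, and 3 HET and 4 WT libraries had 0. A library at 0 allows up to 3 counts, which are worth 0.0622 to 0.0881 CPM in HET and 0.0593 to 0.0919 CPM in WT, counting error only. Best2 was not tested.

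Among the anoctamins, neither Ano1 nor Ano2 passed the test, and both varied severalfold within each genotype. Ano1 had 2.42, 5.35 and 9.41 CPM in the lowest, median and highest HET libraries and 2.61, 4.46 and 7.90 CPM in the WT ones. Those ranges overlap over nearly their whole length, and the log2 fold change was 0.31 (SE 0.27, 95% confidence interval -0.27 to 0.89, adjusted p 0.527 in edgeR). Without HET 6 and WT 4 together it was called higher in HET (log2 fold change 0.63, adjusted p 0.0486 in edgeR, beside 0.0486 to 0.804 over its 27 alternatives). With a surrogate variable, the excitatory markers or the thalamus markers as a covariate the sign turned, to -0.22, -0.26 and -0.17. Ano2 ranged more widely, with 0.669, 5.15 and 16.1 CPM in HET and 0.155, 3.16 and 9.22 CPM in WT. Its log2 fold change was 1.08 (SE 0.69, 95% confidence interval -0.40 to 2.56, adjusted p 0.375 in edgeR). The library with the most Ano2 in each genotype also had the highest summed striatum markers of that genotype. These were HET 5, with 2890 CPM of markers, and WT 4, with 1980 CPM. The HET library with the least Ano2, HET 4, had the lowest striatum sum of its group, 203 CPM. In WT the library with the least Ano2, WT 1, had 304 CPM of markers, above the lowest sum of 227 CPM in WT 3. With the striatum markers as a covariate the log2 fold change of Ano2 was 1.28 (adjusted p 0.119 in edgeR; 0.119 to 0.624 over its alternatives). None of the 8 striatum markers were called, and all 8 had positive fold changes.

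**Figure D2:**
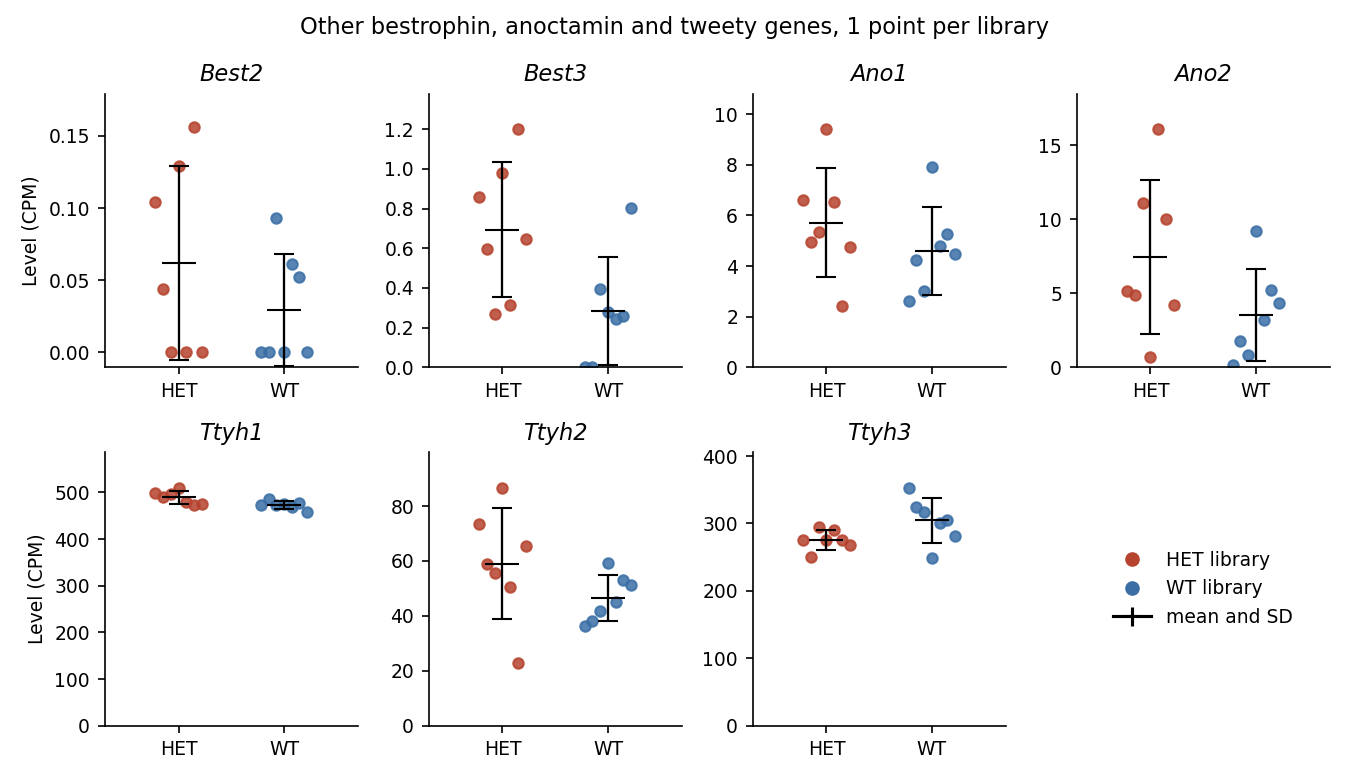
Level in CPM (vertical axis of each panel on its own scale) of the 7 related channel genes in each HET and WT library, with bars for mean and SD; in the Best2 panel the lower bars reach below 0. The groups overlap in every panel, and among the HET libraries Ano2 runs from 0.669 to 16.1 CPM and Ttyh2 from 22.7 to 86.7 CPM.

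The tweety homologues had the highest levels per length of the channel genes in the set, and none passed the test. Ttyh1, found in neurons and astrocytes, had 473, 490 and 510 CPM in the lowest, median and highest HET libraries and 457, 472 and 485 CPM in the WT ones. It was the steadiest of the 10 genes, and its log2 fold change of 0.05 had a narrow 95% confidence interval of -0.04 to 0.14 (adjusted p 0.490 in edgeR). Ttyh3 had 250, 276 and 295 CPM in HET and 249, 305 and 353 CPM in WT. Its log2 fold change was -0.14 (SE 0.07, 95% confidence interval -0.29 to 0.01, adjusted p 0.242 in edgeR). Without HET 6 and WT 4 together it was called lower in HET (log2 fold change -0.18, adjusted p 0.0485 in edgeR; 0.0485 to 0.797 over its alternatives).

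Ttyh2 had 22.7, 58.9 and 86.7 CPM in the lowest, median and highest HET libraries and 36.4, 45.0 and 59.3 CPM in the WT ones. The lowest of all 14 libraries was HET 6 and the highest HET 4, so the HET range encloses the WT range. The log2 fold change was 0.35 (SE 0.22, 95% confidence interval -0.12 to 0.81, adjusted p 0.366 in edgeR). Summed oligodendrocyte markers were lowest in HET 6, at 2010 CPM, and highest in HET 4, at 8680 CPM, with 3840 to 6520 CPM in the WT libraries, and 0 of the 8 markers were called. With those markers as a covariate Ttyh2 was called higher in HET at a smaller log2 fold change of 0.19 (adjusted p 0.0292 in edgeR), and without HET 6 and WT 4 together at 0.56 (adjusted p 0.0166; 0.0166 to 0.874 over its alternatives). With a surrogate variable, the excitatory markers or the thalamus markers as a covariate the sign turned, to -0.12, -0.10 and -0.11.

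**Figure D3:**
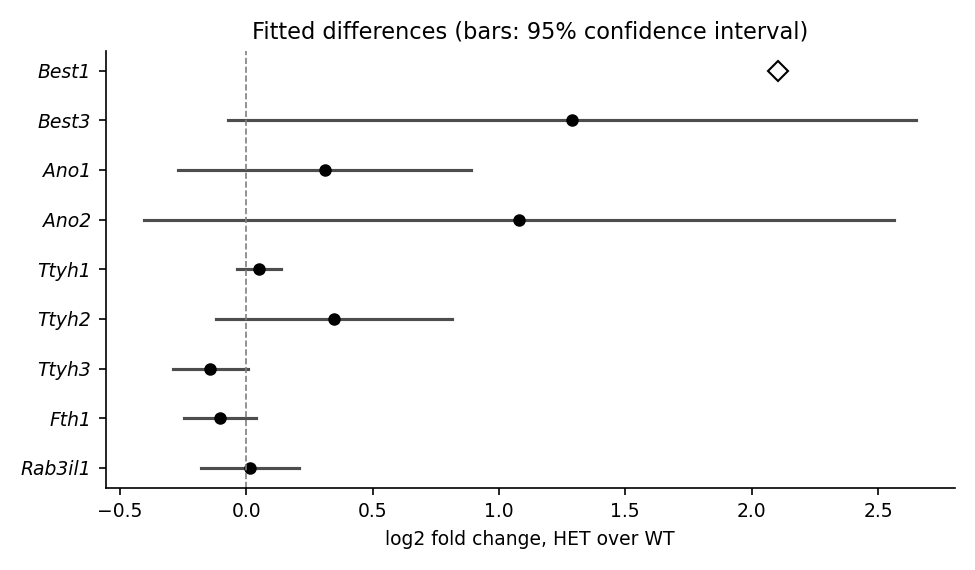
Fitted log2 fold change, HET over WT (horizontal axis), of the 9 tested genes; bars are 95% confidence intervals and the dashed line marks no difference. Best1 (2.10, open diamond) is drawn without an interval because it was picked for this difference, and the intervals of the other 8 genes all include 0.

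In all, 0 of the 8 tested genes other than Best1 were called in edgeR at adjusted p under 0.05, beside 0.97% of all tested genes. At unadjusted p under 0.05 there were 0, against 22.2% of all tested genes, and neither DESeq2 nor limma-voom called any (0 each). Their median log2 fold change was 0.18, beside 0.02 over all tested genes. Best3 and Ano2 had fitted folds of 2.44 and 2.11, with intervals that include 0 on the log2 scale, so changes of that size were not detectable at the spread between these libraries.

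Levels were compared between genes per kilobase of exon. In HET the order was Fth1 (388 ± 26.3 CPM per kb), Ttyh1 (76.6 ± 2.19), Ttyh3 (48.6 ± 2.55), Ttyh2 (15.8 ± 5.37) and then Best1 (2.21 ± 0.600). After Best1 came Rab3il1 (1.62 ± 0.226 CPM per kb), Ano2 (1.38 ± 0.968), Ano1 (0.905 ± 0.339), Best3 (0.255 ± 0.126) and Best2 (0.0279 ± 0.0302), all SD with n = 7. The ranges of Best1, Rab3il1, Ano2, Ano1 and Best3 overlap from each gene to the next. In WT the same 4 genes led, with Fth1 at 417 ± 38.3, Ttyh1 at 74.0 ± 1.32, Ttyh3 at 53.6 ± 5.82 and Ttyh2 at 12.4 ± 2.25 CPM per kb. Rab3il1 (1.61 ± 0.128), Ano1 (0.728 ± 0.274), Ano2 (0.652 ± 0.577), Best1 (0.512 ± 0.204), Best3 (0.104 ± 0.0999) and Best2 (0.0133 ± 0.0175 CPM per kb) followed. Best1 was thus the fifth of the 10 genes in HET and the eighth in WT, where its range overlaps those of Ano2 and Best3.

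No peak of either list lay within 5 kb of the Best1 start. The HET list had 1 peak inside the gene, on chromosome 19 from 9992808 to 9993306 (mm10), 499 bases wide and 8327 to 8825 bases from the start. It covers 79 bases of merged exon 4 and 192 bases of merged exon 5 of the 13, and intron between them. No WT peak overlaps it. Such a HET peak without a WT counterpart lay in the body of 26.0% of all tested genes, and a WT peak without a HET counterpart in 5.98%. The HET list is the longer one, with 30862 peaks against 19272 in WT. Of the HET peaks, 60.7% were narrower than the Best1 peak. It was kept when the widest HET peaks were taken in equal number to the WT list. With 1 merged list per genotype and no peak height, no difference between the genotypes can be tested.

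**Figure D4:**
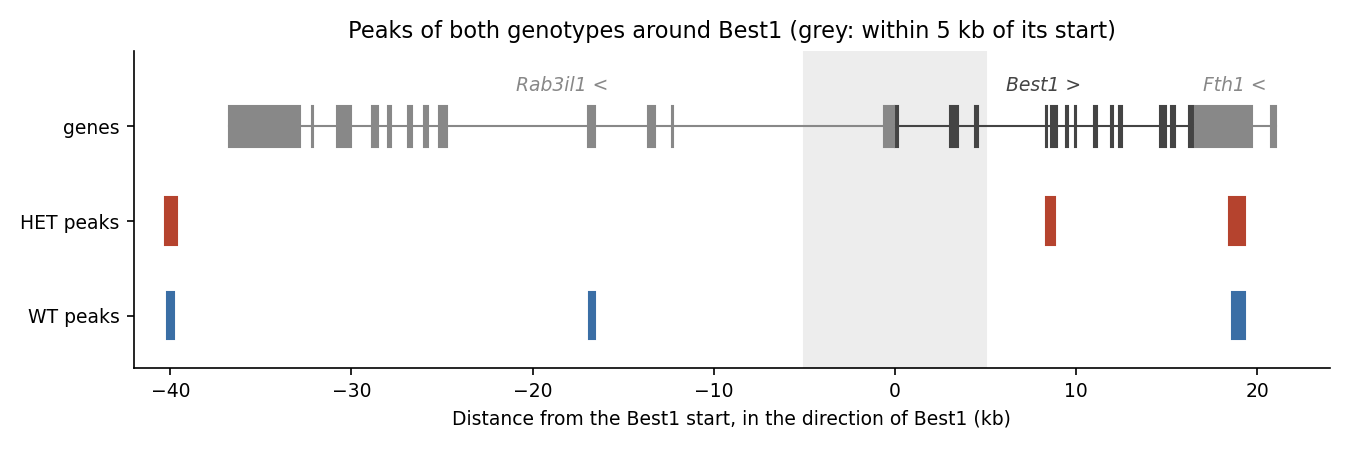
Position of Best1, Fth1 and Rab3il1 (boxes are exons, arrowheads the direction) and of the HET and WT peaks, by distance in kb from the Best1 start along Best1 (horizontal axis). The grey band of 5 kb to each side of the start holds no peak, and 1 HET peak lies 8327 to 8825 bases into the gene with no WT peak under it.

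Of the 10 genes, 5 had a HET peak within 5 kb of their start and 3 had a WT peak, beside 71.2% and 63.5% of all tested genes. Fth1 had a peak in both lists over its RefSeq start at 9982646, 851 bases wide in HET and 710 in WT. Neither list had a peak over its RefSeq start at 9980600. Ttyh3 had a peak in both lists over its start, from position -512 to 86 in HET and from -504 to 45 in WT. Ttyh1 had no peak over its start; a peak in both lists lay downstream, 1088 bases wide in HET and 536 in WT, and a HET peak of 178 bases upstream had no WT counterpart. Best2 had a HET peak 903 to 1195 bases downstream of its start and Ano2 a HET peak of 160 bases, 1329 to 1488 bases downstream, both without a WT counterpart. Of all HET peaks, 6.4% are narrower than that of Ano2. Best3, Rab3il1, Ano1 and Ttyh2 had none within 5 kb, like Best1. Among peaks at least as wide as the median of their list, 3 genes had a HET peak and 3 a WT peak. A WT peak in Rab3il1, 304 bases wide, overlaps a RefSeq start inside the gene at 10018251, and no HET peak overlaps it.

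Other chloride channel and transporter genes were counted from 5 lists of 44 genes, of which 31 were tested. None were called in edgeR, and 13 had an unadjusted p under 0.05 (22.2% of all tested genes did). DESeq2 called 3 higher and limma-voom 4 higher, where they called 4.25% and 5.16% of all tested genes higher. The median log2 fold change was 0.07, with 20 positive and 11 negative. Among the other anoctamins 0 of 7 tested were called. Ano3, an anoctamin of the striatum and cortex and the one with the highest WT level per length, averaged 91.4 ± 59.1 CPM in HET and 136 ± 34.3 CPM in WT (log2 fold change -0.58, adjusted p 0.406, edgeR), with 5 of 7 HET libraries below the lowest WT library. Ano6, a lipid scramblase that also conducts ions, singled out after its values were seen, had 21.5, 25.0 and 29.0 CPM in the lowest, median and highest HET libraries and 15.5, 20.6 and 23.6 CPM in the WT ones. Of 7 HET libraries 6 lay above its highest WT library, its log2 fold change was 0.33, and its adjusted p was 0.0809 in edgeR and 0.0239 in DESeq2, and without HET 6 and WT 4 it was 0.0208 (0.0208 to 0.366 over its alternatives). Of the volume-regulated LRRC8 channels 0 of 4 were called, with Lrrc8b averaging 95.9 ± 25.7 CPM in HET against 138 ± 34.3 CPM in WT (log2 fold change -0.52, adjusted p 0.145 in edgeR). Without WT 4, Lrrc8b was called lower (log2 fold change -0.62, adjusted p 0.0463), and likewise without HET 6 and WT 4 together (-0.70, adjusted p 0.0217; 0.0217 to 0.915 over its alternatives).

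Of the list of ClC channels and transporters, which also holds genes outside the Clcn family, 0 of 9 tested genes were called. Clcn4, an endosomal chloride and proton exchanger, averaged 195 ± 10.2 CPM in HET and 212 ± 15.9 CPM in WT (log2 fold change -0.12, adjusted p 0.215 in edgeR). It was called lower without HET 6 and WT 4 (-0.18, adjusted p 0.0208; 0.0208 to 0.89 over its alternatives). The Clca list had 1 tested gene, Clca3a1, averaging 0.595 ± 0.441 CPM in HET against 0.330 ± 0.096 CPM in WT (log2 fold change 0.83, adjusted p 0.240 in edgeR). Among cotransporters and other anion channels 0 of 10 were called. Slc12a5, the neuronal potassium chloride cotransporter KCC2, averaged 759 ± 38.4 CPM in HET and 776 ± 65.0 CPM in WT (log2 fold change -0.03, adjusted p 0.794 in edgeR). Slc4a4, an astrocyte sodium bicarbonate cotransporter singled out after its values were seen, averaged 240 ± 51.2 CPM in HET and 171 ± 35.8 CPM in WT. Its log2 fold change was 0.49, and all but 1 of the 7 HET libraries exceeded the highest WT library. Its adjusted p was 0.108 in edgeR, 0.0393 in DESeq2 and 0.0199 in limma-voom, and without HET 6 and WT 4 it was 0.006 (0.006 to 0.609 over its alternatives). Without HET 6 and WT 4 together 10 of the 31 genes were called, 8 higher and 2 lower, beside 9.0% and 9.28% of all tested genes.

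Since bestrophin 1 has been described as a route for tonic GABA release, GABA synthesis, uptake and extrasynaptic receptor genes were counted as well. Of 11 tested, 1 was called higher in HET, as 0.587% of all tested genes were. It was Gabrr2, which encodes a subunit of slowly desensitizing GABA receptors best known from retina. It had 1.08, 1.61 and 3.29 CPM in the lowest, median and highest HET libraries and 0.190, 0.569 and 0.810 CPM in the WT ones. All 7 HET libraries lay above the highest WT library, as for 0.432% of all tested genes. The log2 fold change was 1.74 (SE 0.32, 95% confidence interval 1.06 to 2.42, adjusted p 0.0352 in edgeR). Leaving out any of 10 libraries in turn took its adjusted p above the threshold, up to 0.0818, while the log2 fold change stayed between 1.51 and 1.88. The replicate block gave an adjusted p of 0.0784, and with the excitatory or thalamus markers as a covariate it was 0.135 or 0.0970 (5.93e-05 to 0.135 over its alternatives). The GABA transporter gene Slc6a11, singled out after its values were seen, had 179 to 906 CPM in HET and 130 to 393 CPM in WT (log2 fold change 0.95, adjusted p 0.147 in edgeR). It was called higher without HET 6 and WT 4 (1.25, adjusted p 0.0276) and with the oligodendrocyte markers as a covariate (0.80, adjusted p 0.0265), with 0.0265 to 0.827 over its alternatives.

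Among the iron genes 0 of 12 tested were called, with the iron carrier Trf averaging 404 ± 146 CPM in HET against 317 ± 97.7 CPM in WT (adjusted p 0.466 in edgeR). Among genes of the Rab3 and Rab8 cycle 0 of 11 were called, with Rab3a, a GTPase of synaptic vesicles, averaging 552 ± 38 CPM in HET against 589 ± 34.7 CPM in WT (adjusted p 0.356 in edgeR). Rab3a was called lower without HET 6 and WT 4 (-0.15, adjusted p 0.0291; 0.0291 to 0.799 over its alternatives). At unadjusted p under 0.05 there were 1 of the 12 iron genes and 4 of the 11 Rab genes, beside 22.2% of all tested genes. DESeq2 and limma-voom each called 1 iron gene lower, and each called 1 gene higher and 2 lower in the Rab list. Across all tested genes, the share passing as higher was 4.25% with DESeq2 and 5.16% with limma-voom. The share passing as lower was 4.07% with DESeq2 and 5.29% with limma-voom. In the main edgeR fit 0.97% of all tested genes passed in either direction.

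Regulators of Best1 known from the retinal pigment epithelium gave 0 calls of 4 tested in edgeR and DESeq2, with 1 at unadjusted p under 0.05. Otx2, a homeodomain factor that binds TAATCC, was singled out after its values were seen. It had 2.03, 3.93 and 12 CPM in the lowest, median and highest HET libraries and 0.332, 1.12 and 4.06 CPM in the WT ones. The groups overlap, and the log2 fold change was 1.62 (SE 0.57, 95% confidence interval 0.42 to 2.83). Its adjusted p was 0.123 in edgeR, 0.0447 in limma-voom and 0.0394 with the oligodendrocyte markers as a covariate (0.0394 to 0.475 over its alternatives). Sox9 averaged 32.2 ± 4.52 CPM in HET and 28.8 ± 6.04 CPM in WT (adjusted p 0.490 in edgeR).

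Markers of the retinal pigment epithelium itself summed to 14.9 to 21.0 CPM in HET and 18.2 to 26.8 CPM in WT. Most of that was Rlbp1, a retinoid binding protein also made by glia, with averages of 12.4 ± 1.91 CPM (HET) and 18.0 ± 3.34 CPM (WT) (log2 fold change -0.54, adjusted p 0.0528 in edgeR). It was called lower in DESeq2 (adjusted p 0.00408) and without HET 6 and WT 4 (-0.59, adjusted p 0.00956), with 0.00408 to 0.321 over its alternatives. Of the 8 epithelial markers 4 were tested and 0 called, with 1 positive and 3 negative fold changes. Rdh5 and Lrat, singled out after their values were seen, averaged higher in HET. Rdh5 had 3.2 CPM in HET and 2.1 CPM in WT (log2 fold change 0.65, adjusted p 0.164 in edgeR, the main fit alone). Lrat, not tested, had 0.401 CPM in HET and 0.14 CPM in WT. Rgr, Tyr and Mlana averaged 0.0116 to 0.0765 CPM in HET and 0.00664 to 0.0709 CPM in WT. Astrocyte markers summed to 3600 to 4140 CPM in HET and 3940 to 4730 CPM in WT, with 0 of 10 called. Of their fold changes 7 were positive and 3 negative (median log2 fold change 0.15), so the lower sums do not hold for most of these markers. None of the markers of the other cell types and regions were called either in edgeR (0 of 8 each, and 0 of 6 tested male germ cell markers). DESeq2 called 3 germ cell markers and 1 thalamus marker higher, and 1 excitatory, 1 interneuron, 1 microglia and 1 epithelial marker lower. It called 4.25% of all tested genes higher and 4.07% lower. In limma-voom 3 germ cell markers and 1 choroid plexus marker were called higher, and 2 excitatory, 2 interneuron and 1 epithelial marker lower. There, 5.16% of all tested genes were called higher and 5.29% lower. The choroid plexus marker called in limma-voom was Otx2, which is also counted above among the regulators of Best1. Microglia markers, with 8 of 8 fold changes negative, summed to 262 to 377 CPM in HET and 339 to 392 CPM in WT, and endothelial and mural markers to 296 to 341 CPM in HET and 275 to 347 CPM in WT. Choroid plexus markers, led by Ttr, spread most widely, from 26.9 to 743 CPM in HET and from 10.3 to 436 CPM in WT. Interneuron markers summed to 1060 to 1810 CPM in HET and 1190 to 1730 CPM in WT, and male germ cell markers, among them Dazl, to 8.65 to 13.3 CPM in HET and 6.71 to 10.5 CPM in WT. Of the 6 tested germ cell markers 5 had positive fold changes (median log2 fold change 0.71), and 1, Dazl, was negative (-0.42). At unadjusted p under 0.05 there were 4 of these 6, beside 22.2% of all tested genes. The striatum marker with the highest WT level per length was the opioid peptide gene Penk (52.8 to 527 CPM in HET and 36.2 to 470 CPM in WT).

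Best1 and the summed thalamus markers were compared library by library. The HET libraries with the lowest marker sums, 238, 299 and 356 CPM, were also the 3 with the least Best1 (4.69, 3.79 and 3.81 CPM). The WT libraries with the lowest marker sums, 155, 166 and 186 CPM, likewise had the least Best1 of WT (0.957, 0.616 and 1.12 CPM). The WT libraries with the highest marker sums, 306, 376 and 694 CPM, had 1.19, 2.25 and 1.52 CPM of Best1. With the thalamus markers as a covariate the log2 fold change of Best1 was 1.78, and with the excitatory markers 1.77. Their part in the difference was not tested beyond these covariates. Tcf7l2, the thalamic marker with the largest fold change of its list and singled out for it, had 4.40 to 261 CPM in HET and 3.46 to 48.1 CPM in WT (adjusted p 0.126 in edgeR, 0.0411 in DESeq2 and 0.0212 to 0.748 over its alternatives).

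**Figure D5:**
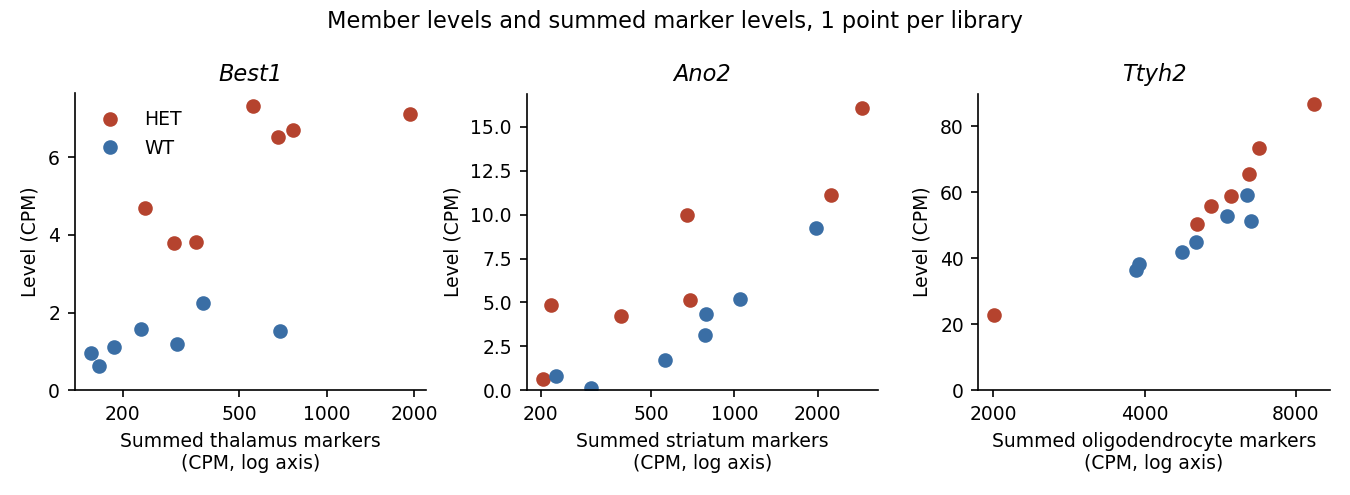
Level in CPM (vertical axes) of Best1, Ano2 and Ttyh2 in each library against the summed CPM of thalamus, striatum and oligodendrocyte markers (horizontal log axes). Best1 was picked for its difference, and its HET points lie above all WT points whatever the marker sum, which adds no support. The highest Ano2 point of each genotype has its highest striatum sum. HET 6 and HET 4 hold the extremes of both Ttyh2 (22.7 and 86.7 CPM) and its marker sum (2010 and 8680 CPM).

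The genes whose levels varied most like Best1 within the genotypes were taken by Pearson correlation of log2 CPM after subtraction of each genotype's mean, over 14 libraries and 13565 genes. They were Slc27a2 (r = 0.96), a fatty acid transport protein, Cfl2 (0.942), an actin depolymerizing factor, Heph (0.93), a ferroxidase, Npm1 (0.926), a nucleolar chaperone, and Vdac3 (0.918), a mitochondrial anion channel. These r describe libraries that share depth and tissue make-up, and they come from the top of a long list. None of the 5 genes was called in edgeR. Without HET 6 and WT 4, Slc27a2 (0.68, adjusted p 0.0323), Heph (0.91, adjusted p 0.0304) and Npm1 (0.24, adjusted p 0.0312) were called higher, and DESeq2 called Heph (adjusted p 0.0304). Heph averaged 12.8 ± 3.73 CPM in HET and 7.60 ± 2.61 CPM in WT (log2 fold change 0.76, adjusted p 0.106 in edgeR). Slc27a2 averaged 9.16 ± 1.61 CPM in HET and 6.38 ± 2.14 CPM in WT (log2 fold change 0.52, adjusted p 0.151 in edgeR). The other 3 had log2 fold changes of 0.17, 0.18 and 0.09.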

How the data were processed

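RNA counts were made by the authors with featureCounts 2.0.1 over exons summed by gene ID, on Ensembl GRCm38 release 102, with strand ignored and mates not paired into fragments, per the file headers. STAR and Trimmomatic were named without versions, per the submitters' processing notes. The deposited peak lists give peak positions alone, on mm10; MACS3 and Bowtie2 2.4.4 were named, per the submitters' processing notes. The sources used here do not state which ATAC-seq libraries were merged.

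Of 55487 gene IDs, 55141 matched a symbol. filterByExpr kept 18050 genes. TMM factors scaled the counts, and genotypes were compared in edgeR 4.0.16 (robust quasi-likelihood, genotype alone, two-sided, Benjamini-Hochberg over all genes tested, threshold 0.05), a script tested on simulated data. All 91 library pairs differed by more than sampling noise (chi-square per degree of freedom of at least 9.38). The labels do not say whether each library is a separate mouse; the protocol gives n = 7, and p-values measure the spread between these libraries.

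Members, lists, tests and alternatives were chosen with earlier results of these data known. Named were the 10 members, called neighbours within 250 kb, up to 4 called genes per list or else its gene with the highest WT level per length, and the 5 genes most like Best1. A gene that this rule names is not reported here. Incenp, Fads2 and genes said to be singled out were added after their values were seen. Alternatives were DESeq2 1.42.0, its size factors, other filters, limma-voom 3.58.1, sva 3.50.0, marker covariates, a replicate block and left-out libraries; the thalamus, striatum and oligodendrocyte covariates and the joint removal of HET 6 and WT 4 were chosen after seeing the data. Promoter windows are RefSeq's (GRCm38.p6, 8 of the 10 genes matched). No genome sequence was used here, so peaks are given by position.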

Additional observations from a re-analysis of the deposited data

How the results depend on the processing

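The Best1 log2 fold change stayed between 1.77 and 2.33 under all 27 alternatives. For all genes, HET against WT, the 175 calls became 1503 in DESeq2 (768 higher, 735 lower), 1886 in limma-voom (931 higher, 955 lower), 106 without a filter, 10 with the replicate block, 29 with 1 surrogate variable, and 12, 24, 302 and 1533 with excitatory, thalamus, astrocyte and oligodendrocyte markers as a covariate. They became 3296 without HET 6 and WT 4 together, and 11 to 1672 with a library left out (1110 without HET 6, 1672 without WT 4); the share of higher against lower calls also moved. Same-numbered libraries did not deviate together (r from -0.284 to 0.334, 1 of 7 best matched to its own number), so the numbers were not taken to pair mice. The replicate block changed the tonic GABA count to 0. Of the members other than Best1, 1 was called under the oligodendrocyte covariate, 3 without HET 6 and WT 4 together, and 0 to 0 with a library left out. Neighbours called were 1 in DESeq2, 3 under the oligodendrocyte covariate, 3 without both libraries, 1 within 1000 kb and 0 to 1 with a library left out. Of the 3 under the oligodendrocyte covariate, 1 was Myrf, which is itself among the markers of that covariate, so its call there cannot be read. Chloride channel genes called were 3 in DESeq2, 4 in limma-voom, 1 with striatum markers, 5 with oligodendrocyte markers, 10 without both libraries and 0 to 4 with a library left out. Tonic GABA genes called were 2 in DESeq2, 2 in limma-voom, 0 with 1 surrogate variable, excitatory or thalamus markers, 4 with oligodendrocyte markers, 5 without both libraries and 0 to 2 with a library left out. Members with a HET peak numbered 2 within 1 kb, 8 within 10 kb, 3 among wide peaks and 3 among the widest HET peaks in equal number; those with a WT peak numbered 1 within 1 kb and 4 within 10 kb.

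For single genes, 945 values kept sign and side of the threshold, 46 passed it newly and 30 lost it. The cause of these shifts was not tested. Signs of genes that were not called turned as follows. With 1 surrogate variable they were Rab3il1 -0.02, Ano1 -0.22, Ttyh2 -0.12, Slc12a5 0.05 and Trf -0.20. With excitatory markers they were Ano1 -0.26, Ttyh2 -0.10, Ano3 0.06, Slc12a5 0.07, Trf -0.14, Ttr 0.31, Dazl 0.04 and Vdac3 -0.01. With thalamus markers they were Rab3il1 -0.02, Ano1 -0.17, Ttyh2 -0.11, Slc12a5 0.03 and Trf -0.21. With astrocyte markers Rab3il1 was -0.03, and with oligodendrocyte markers it was -0.00. Adnp was -0.06 in limma-voom and -0.00 without HET 6 and WT 4 together. With a library left out, Rab3il1 ran from -0.03 to 0.05, Penk from -0.13 to 0.78 and Ttr from -2.13 to 0.18. Depth limits Best2, whose counts are near the floor in several libraries, and to a lesser degree Best3, with 2 of 7 WT libraries at 0.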
